A study of Mus musculus with 6 samples.

Results

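Lipid-associated macrophage genes are 10 genes that mark macrophages loaded with lipid: Trem2, Apoe, Gpnmb, Spp1, Lpl, Fabp4, Fabp5, Cd9, Lgals3 and Plin2. They were taken by symbol from the table of counts, which held all 10 among its 21878 genes. Bulk mRNA sequencing was done on macrophages sorted from MC38 tumours, grown from a mouse colon carcinoma line, 14 days after injection. The 3 KO libraries came from Trmt61af/fLysmCre mice, in which a Cre recombinase made from the lysozyme M locus deletes floxed Trmt61a in myeloid cells. For the 3 WT libraries the source was Trmt61af/f mice, which carry the same floxed alleles without the Cre. Whether the replicates, numbered 1 to 3, are separate mice is not stated, so every p-value reflects variation among libraries that could be technical. The sources used here give neither the sort gate nor the age or sex of the mice.

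Macrophages in tumours, in obese fat tissue and in atherosclerotic plaques take up lipid from dying cells and lipoproteins. Part of this state depends on TREM2, a surface receptor for phospholipids and lipoproteins that signals through the adaptor TYROBP. The other genes cover successive steps: lipoprotein hydrolysis (Lpl), lipid transport out of the cell (Apoe) and inside it (Fabp4, Fabp5), storage in droplets (Plin2), lysosome and membrane proteins (Gpnmb, Cd9), and secreted proteins (Spp1, Lgals3). Cells with this set are often described in tumours as macrophages high in SPP1 or TREM2.

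None of the 10 genes passed the test between KO and WT. Every KO library lay above every WT library for Gpnmb (1.30-fold) and Plin2 (1.26-fold), and for 6.11% of all genes tested. The reverse held for 0 of the 10 genes and 6.3% of all. The Plin2 values are uncertain, since its row carries the gene number of a pseudogene. Spp1 averaged 1.43-fold higher in KO with overlapping groups. Trem2 averaged 198 ± 4.54 CPM in KO and 199 ± 11.4 CPM in WT, and Apoe, the lipid carrier, averaged 4183 ± 745 CPM in KO and 4066 ± 420 CPM in WT (SD, n = 3 each). Values are CPM, a gene's counts over the library total after TMM scaling, a correction for differences in library composition. The test was edgeR's quasi-likelihood test over 12136 genes, with a call at a Benjamini-Hochberg adjusted p under 0.05. In it 0.0165% of all genes were called in either direction and 0% as higher, and DESeq2 called 0 of the 10 genes where it called 0.239% of all.

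The libraries held 18839026 to 20313597 counts in KO and 19622763 to 20247004 in WT, with 14037 to 14184 genes detected in each. The deleted gene, Trmt61a, was at 2.11 ± 0.366 CPM in KO and 7.45 ± 0.532 CPM in WT (SD, n = 3 each), and all 6 libraries followed their labels. Its log2 fold change was -1.81 (edgeR adjusted p = 0.0426). With other settings or a library left out, it passed in 9 of 17 alternatives. Macrophage markers, among them Csf1r and C1qa, summed to 9768 to 10740 CPM in KO and 10340 to 11630 CPM in WT. Of the cells other than macrophages that use some of the 10 genes, fat cells had 8 of 9 markers under 1 CPM throughout. Among these 8 were the hormone genes Adipoq and Lep, at 0 in every library. The exception was Lipe, at 18.7 ± 2.89 CPM in KO and 19.5 ± 2.14 CPM in WT (SD, n = 3 each). In tumour epithelium 8 of 9 markers stayed under 1 CPM in every library, all but Cdh1, which was at 111 to 134 CPM in KO and 76.7 to 141 CPM in WT. Of 9 fibroblast markers 1 stayed under 1 CPM throughout, and their sum was 325 to 456.5 CPM in KO and 330.5 to 475 CPM in WT. Endothelial markers summed to 65.9 to 89.2 CPM in KO and 61.8 to 72.8 CPM in WT, mostly Pecam1. Of these 9 markers 5 stayed under 1 CPM throughout, among them Cldn5, Emcn and Gpihbp1. Besides Pecam1, the rest were Vwf, at 5.46 to 9.98 CPM over the 6 libraries, Kdr (0.892 to 3.27 CPM) and Cdh5 (0.857 to 2.60 CPM).

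Promoter sequences are shown for the 3 genes with the smallest p among the 10, each at 250 bases before to 50 after the start of transcription, 5′ to 3′ on the strand of the gene. They are from RefSeq on GRCm38.p6, whose table held 7 of the 10 genes. Capitals mark matches on either strand to 3 motifs that do not overlap here. These are TCATGTG, the M-box of MITF, and CACGTG, an E-box of TFEB and related factors. The last is TGANTCA, a loose form of the AP-1 site that takes any base at N.
Gpnmb, chr6:49036268-49036567, plus strand: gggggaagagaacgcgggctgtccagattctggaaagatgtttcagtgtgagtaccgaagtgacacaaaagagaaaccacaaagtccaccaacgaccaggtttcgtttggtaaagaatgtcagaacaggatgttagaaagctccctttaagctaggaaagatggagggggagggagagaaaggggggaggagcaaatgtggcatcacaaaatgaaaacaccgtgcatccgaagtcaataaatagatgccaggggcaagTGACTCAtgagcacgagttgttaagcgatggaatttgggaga
Plin2, chr4:86670010-86670309, minus strand: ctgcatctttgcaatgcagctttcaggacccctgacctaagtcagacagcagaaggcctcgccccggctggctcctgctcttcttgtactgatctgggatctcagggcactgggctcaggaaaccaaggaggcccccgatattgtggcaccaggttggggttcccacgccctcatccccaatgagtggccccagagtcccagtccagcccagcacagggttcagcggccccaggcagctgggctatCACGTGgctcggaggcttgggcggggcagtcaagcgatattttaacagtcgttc
Spp1, chr5:104434861-104435160, plus strand: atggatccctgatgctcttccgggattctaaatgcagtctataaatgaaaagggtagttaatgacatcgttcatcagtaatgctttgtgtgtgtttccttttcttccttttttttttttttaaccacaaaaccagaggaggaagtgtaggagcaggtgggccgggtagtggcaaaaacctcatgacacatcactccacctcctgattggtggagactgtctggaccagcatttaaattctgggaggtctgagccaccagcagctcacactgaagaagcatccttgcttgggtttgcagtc
The Gpnmb window held an AP-1 match that begins at base 9 after the RefSeq start, a motif present in 7.81% of 32817 promoter windows. Another annotation, GENCODE M21, begins Gpnmb further downstream, at 49036546, and by it this match lies before the start. The Trem2 window, not shown, also held a match to TGANTCA, beginning 9 bases before its start. It reads TGAATCA, with A at the central base where the Gpnmb match has C. The Plin2 window held CACGTG beginning 4 bases before the start, present in 7.15% of windows. Spp1 has a second annotated start with a window of its own, not shown. Neither Spp1 window held a match to any of the 3, and a match or its lack is a description of these letters alone. The M-box was in 3.78% of windows and in none of those of the 7 genes.

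Read per length, the mean levels of the 10 genes spanned nearly 4 orders of magnitude. On the scale of CPM per kilobase of merged exons, the highest levels were those of Spp1, which codes for the secreted glycoprotein osteopontin, at 2889 ± 577 in KO and 2022 ± 581 in WT (SD, n = 3 each). Apoe followed at 1957 ± 349 in KO and 1902 ± 196 in WT, and their ranges over 6 libraries overlapped, so the order of these neighbours lay within the spread. With the length of the longest transcript in place of merged exons, Apoe stood first and the other 8 genes kept their places, while the levels of Apoe, Cd9, Plin2, Gpnmb and Lpl came out over 1.5 times higher. Lgals3, galectin-3, a lectin that binds galactose-bearing glycans, came next at 789 ± 55.5 in KO and 719 ± 93.9 in WT.

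Cd9, a tetraspanin of the cell surface, was at 193 ± 15.6 CPM per kilobase in KO and 161 ± 35.2 in WT, and overlapped Plin2, at 146 ± 10.1 in KO and 116 ± 16.7 in WT. Fabp5 was at 49.5 ± 4.42 in KO and 47.5 ± 4.91 in WT, overlapping Trem2 at 40.0 ± 0.918 in KO and 40.2 ± 2.31 in WT. Gpnmb, at 6.63 ± 0.957 in KO and 5.11 ± 0.547 in WT, overlapped Lpl, at 3.94 ± 1.89 in KO and 3.74 ± 1.20 in WT. Fabp4 was last by a wide margin, at 0.390 ± 0.121 in KO and 0.396 ± 0.0997 in WT. Between the other neighbours in this order, the ranges over the 6 libraries did not overlap.

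**Figure D1:**
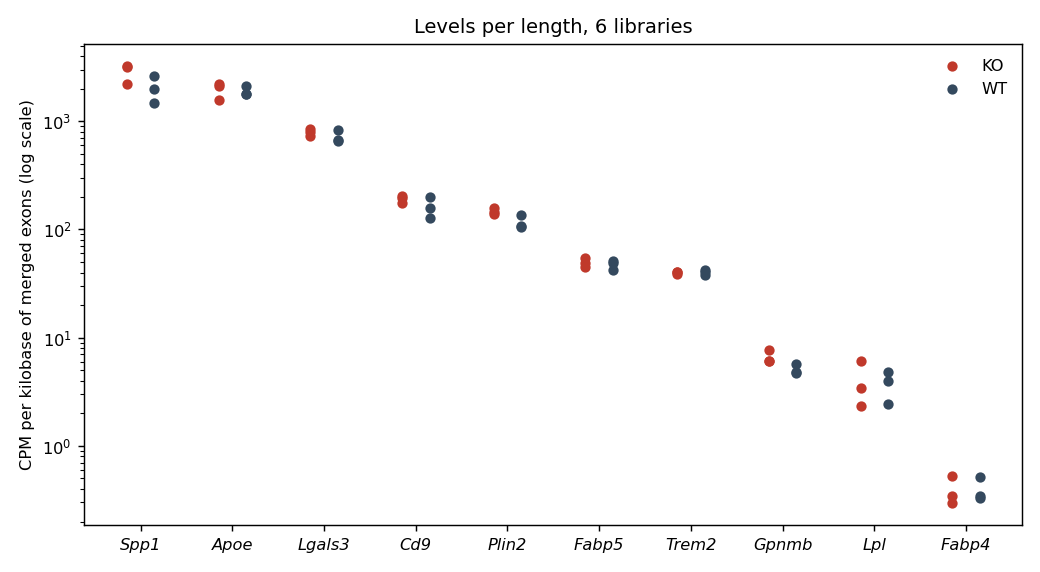
Levels of the 10 genes in CPM per kilobase of merged exons, on a log axis, with 3 KO libraries (red) left of 3 WT libraries (blue) for each gene. Spp1 and Apoe lie near the top and Fabp4 lies below 1.

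Trem2, the lipid receptor, was the steadiest of the set. KO replicates 1, 2 and 3 had 202, 199.5 and 193 CPM, against 198, 211 and 188 CPM in WT replicates 1, 2 and 3. The KO values lay inside the range of the WT values. A log2 fold change of -0.0065 resulted (SE 0.0702, edgeR adjusted p = 0.987), with a 95% interval from 0.893-fold to 1.11-fold. The gene lies on chromosome 17, 48346401 to 48354147 on the plus strand of GRCm38, and GENCODE M21 places no other gene over it.

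Apoe, apolipoprotein E, had 4728, 4488 and 3334 CPM in the KO libraries, against 3823, 4551 and 3824 CPM in the WT libraries. KO held both the highest and the lowest library. Between the groups it differed by 0.041 on the log2 scale (SE 0.134, edgeR adjusted p = 0.954), with a 95% interval from 0.835-fold to 1.27-fold. The gene is on chromosome 7, 19696109 to 19699188 on the minus strand.

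Lpl, lipoprotein lipase, which frees fatty acids from triglyceride-rich lipoproteins, varied most. It was at 24.6, 36.1 and 63.1 CPM in the KO libraries, against 25.4, 50.2 and 41.9 CPM in the WT libraries. The highest library was 2.57 times the lowest, and both were KO. Its biological coefficient of variation, the spread between libraries beyond counting error, was estimated at 0.305, against 0.0939 for genes of like level. KO over WT stood at 0.078 on the log2 scale (SE 0.361, edgeR adjusted p = 0.965), with a 95% interval from 0.589-fold to 1.89-fold, so a change of 1.5-fold in either direction was not detectable for this gene. Without KO replicate 1 the log2 value was 0.34, and without KO replicate 3 it was -0.37. The gene lies on chromosome 8, 68880491 to 68907448 on the plus strand.

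The 2 libraries highest in Lpl also had the 2 highest sums of fibroblast markers, a match noticed after the values were seen. The sum of the 9 markers was 325, 340 and 456.5 CPM in KO replicates 1, 2 and 3, against 330.5, 475 and 359 CPM in WT replicates 1, 2 and 3. Apart from KO replicate 3 and WT replicate 2, which held the top places in both and changed order, the 6 libraries stood in the same order by Lpl and by this sum. Of the 9 markers, 5 (Col1a2, Col3a1, Dcn, Pdgfra and Sparc) had their 2 highest values in KO replicate 3 and WT replicate 2, and the other 4 did not. Col3a1, a fibrillar collagen gene and with Sparc the largest part of the sum, was at 96.9, 139 and 157 CPM in the KO libraries, against 90.6, 189 and 119 CPM in the WT libraries. Col1a1, another collagen gene, was instead highest in WT replicate 1, at 8.41, 16.9 and 12.6 CPM in KO and 23.8, 13.6 and 10.1 CPM in WT. Postn, the matrix protein gene periostin, was highest in KO replicate 2, at 0.312, 5.14 and 0.789 CPM in KO and 2.60, 1.06 and 0.897 CPM in WT. The sums did not separate the groups (exact permutation test, two-sided p = 0.6, n = 3 each, where 0.1 is the smallest possible), and their part in the Lpl values was not tested. In bulk samples, fewer cells of a type and less RNA per cell cannot be told apart.

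**Figure D2:**
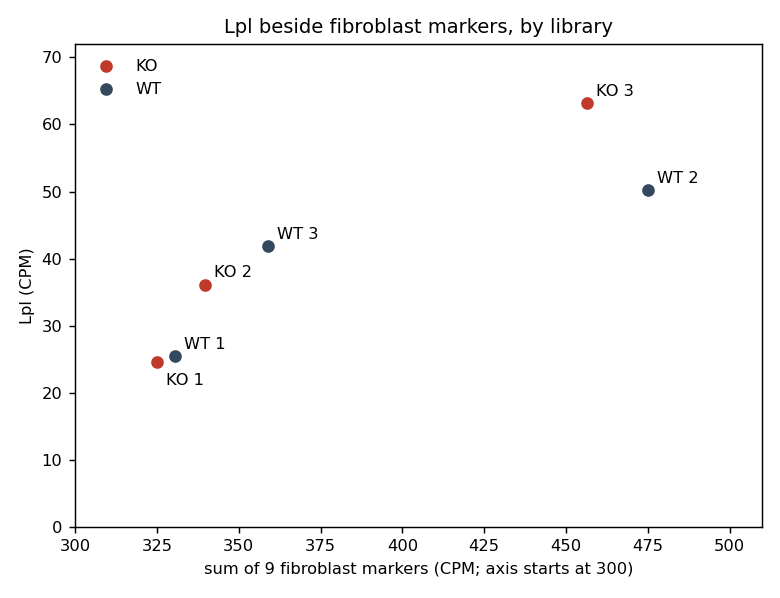
Lpl (CPM, vertical axis) against the sum of 9 fibroblast markers (CPM, horizontal axis, starting at 300) in each KO (red) and WT (blue) library. KO replicate 3 and WT replicate 2 lie highest on both axes, and KO replicate 1 and WT replicate 1 lie lowest on both.

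The 2 fatty acid binding proteins, cytosolic carriers of fatty acids, lie within the same stretch of chromosome 3 and differed widely in level. Fabp5, the epidermal form, at 10012548 to 10016607 on the plus strand, had 175, 193 and 161 CPM in the KO libraries, against 176, 183 and 149.8 CPM in the WT libraries. The groups overlapped, with KO replicate 2 above every WT library and WT replicate 3 below every KO library, at a log2 fold change of 0.058 (SE 0.0958, edgeR adjusted p = 0.905) and a 95% interval from 0.898-fold to 1.21-fold. Fabp4, the adipocyte form and a target of PPARγ, at 10204088 to 10208576 on the minus strand, was close to the floor of detection. Its raw counts were 30, 45 and 27 in the KO libraries, against 29, 31 and 46 in the WT libraries. Counting error alone gives 30 counts an exact 95% Poisson interval of 20.2 to 42.8 and 46 counts one of 33.7 to 61.4. For KO over WT this gave a log2 fold change of -0.026 (SE 0.329, edgeR adjusted p = 0.987), with a 95% interval from 0.591-fold to 1.63-fold.

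Plin2, perilipin 2, coats lipid droplets and rises in many cells as droplets form. It was at 553, 483 and 506 CPM in the KO libraries, against 476, 382 and 369 CPM in the WT libraries. The groups did not overlap, though KO replicate 2 exceeded WT replicate 1 by a small margin. The log2 fold change was 0.33 (SE 0.104), with a 95% interval from 1.07-fold to 1.48-fold, and its p of 0.0103 ranked 164th among all genes tested with edgeR. It did not pass (edgeR adjusted p = 0.701, with a range of 0.331 to 0.949 over 17 alternatives). GENCODE M21 puts Plin2 on chromosome 4, 86648386 to 86670060 on the minus strand, with no other GENCODE gene over it. The row named Plin2 carries the gene number 101055843, which RefSeq on GRCm38.p6 gives to Gm12551, a transcribed pseudogene that overlaps the span RefSeq gives Plin2, while Plin2 itself has the number 11520. The sources used here do not say how reads were shared between Plin2 and Gm12551, so the Plin2 values are uncertain.

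Gpnmb, a transmembrane glycoprotein of lysosomes and a target of the MITF family, was at 50.4, 39.3 and 39.9 CPM in the KO libraries, against 31.5, 37.4 and 31.0 CPM in the WT libraries. The groups did not overlap, with KO replicate 1 well above the rest and KO replicate 2 close to WT replicate 2. KO was higher by 0.38 on the log2 scale (SE 0.117), with a 95% interval from 0.11 to 0.64 on the log2 scale. Its p of 0.00979 ranked 152nd, first among the 10 genes, and it did not pass (edgeR adjusted p = 0.701, with a range of 0.347 to 0.9995 over 17 alternatives). Without KO replicate 1 the log2 value was 0.25. The gene lies on chromosome 6, 49036546 to 49070929 on the plus strand, with no other GENCODE gene over it.

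Cd9 had 403, 359 and 420.5 CPM in the KO libraries, against 260, 404 and 325 CPM in the WT libraries. Its 3 KO values lay together, at a CV of 8.07%, and the WT values ran from well below them to their level, at a CV of 21.8%. On the log2 scale KO differed from WT by 0.26 (SE 0.147, edgeR adjusted p = 0.753), with a 95% interval from 0.946-fold to 1.51-fold, and it was 0.12 without WT replicate 1 and 0.44 without WT replicate 2. The gene is on chromosome 6, 125460266 to 125494791 on the minus strand. Gm28809 and Gm26728 overlap it on the other strand, and since the sources used here give no strand setting for the counting, reads of these genes cannot be told apart from its own.

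Spp1, a secreted ligand of integrins and CD44, showed the largest log2 fold change of the 10. It was at 5351, 3663 and 5269 CPM in the KO libraries, against 2424, 4333 and 3238 CPM in the WT libraries. KO replicates 1 and 3 lay above every WT library, and KO replicate 2 lay below WT replicate 2. The log2 fold change was 0.51 (SE 0.222), with a 95% interval from 0.00022 to 1.03 on the log2 scale and an edgeR adjusted p of 0.713 (unadjusted p = 0.0499). Its coefficient of variation between libraries, 0.192, was 1.99 times that of genes of like level. Leaving out a WT library moved the log2 value to 0.33 without replicate 1 and 0.76 without replicate 2. Spp1 lies on chromosome 5, 104435118 to 104441050 on the plus strand, and Gm42793 is annotated inside it on the same strand, so reads in the shared stretch are uncertain.

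Lgals3 was at 1355, 1558 and 1485 CPM in the KO libraries, against 1219, 1537 and 1253 CPM in the WT libraries. WT replicate 2 stood with the KO libraries, and the other two WT libraries were lower. A log2 fold change of 0.13 was estimated (SE 0.102, edgeR adjusted p = 0.800), with a 95% interval from 0.937-fold to 1.29-fold, and the value was 0.073 without WT replicate 1 and 0.25 without WT replicate 2. The gene is on chromosome 14, 47367751 to 47386160 on the plus strand.

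**Figure D3:**
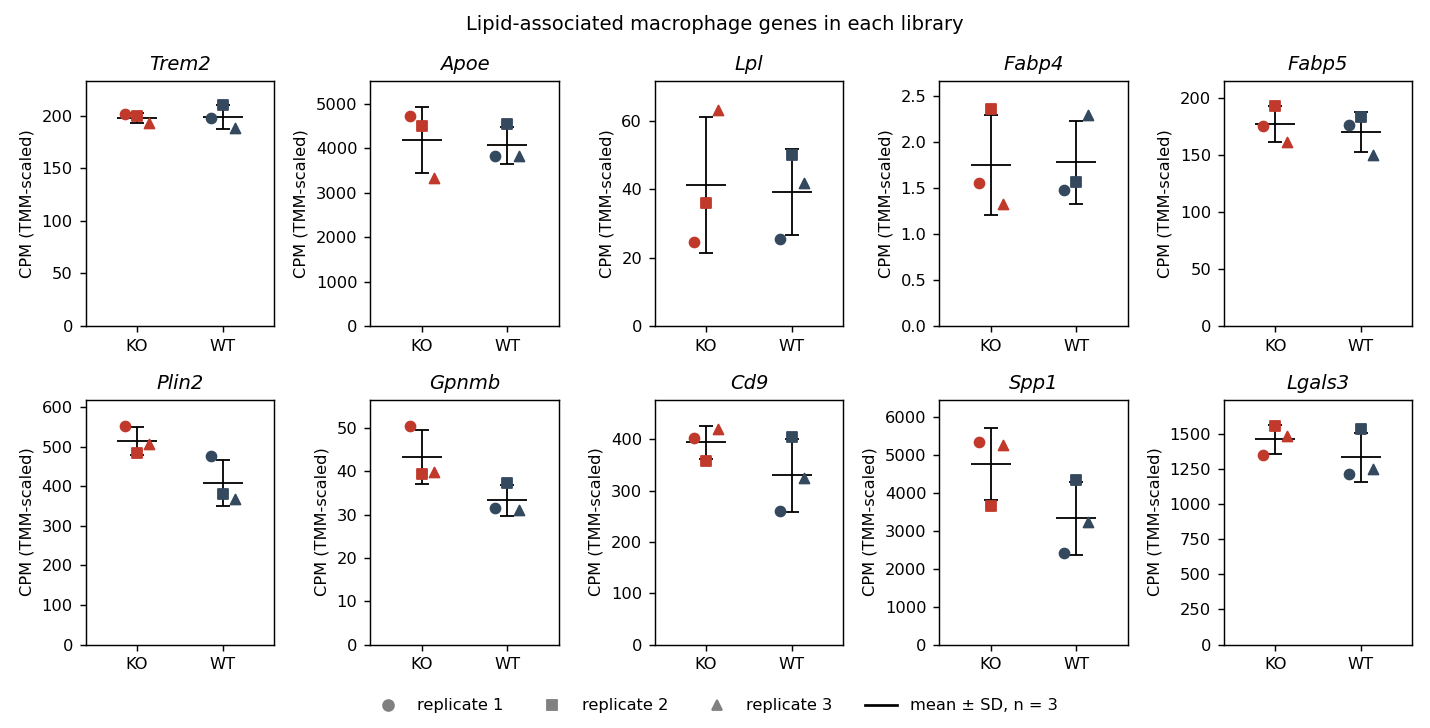
CPM of each of the 10 genes in 3 KO libraries (red, left) and 3 WT libraries (blue, right), with the mean and SD of each group in black and the replicate number by symbol. The groups stand apart for Plin2 and Gpnmb, and overlap for the other genes.

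Over the set, 8 of 10 log2 fold changes were above 0, as were 49.8% of all genes tested, and the median was 0.11 where that of all genes was -0.00088. An unadjusted p under 0.05 was reached by 3 of the 10, all higher (Gpnmb, Plin2, Spp1), beside a background of 3.86% of all genes in that direction and 3.06% in the other. Groups that did not overlap, with KO higher, were found for 2 of the 10 and for 6.11% of all genes, and with KO lower for 0 of the 10 and 6.3% of all genes. The count above 0 ran from 6 to 9 when single libraries were left out, since Trem2, Apoe, Lpl, Fabp4 and Fabp5 changed sign. The 10 genes together summed to 12842, 11021 and 11473 CPM in the KO libraries, against 8635, 11689 and 9422 CPM in the WT libraries, and Apoe and Spp1 made up most of that sum.

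The libraries of each group also differed among themselves. WT replicate 2 was the highest of the WT libraries for 8 of the 10 genes, all but Plin2 and Fabp4, where it was the highest for 34.6% of all tested genes. WT replicate 1 was the lowest of the WT libraries for 6 of the 10, beside 36.2% of all tested genes. It was the lowest of all 6 libraries for Spp1, Cd9 and Lgals3. In KO, replicate 1 was the highest for 5 of the 10, beside 26.0% of all tested genes. The estimated spread between libraries was above that of genes of like level for 8 of the 10, all but Trem2 and Fabp4. It was barely above for Fabp5 (1.02 times), Lgals3 (1.03 times) and Plin2 (1.08 times), and most above for Lpl (3.25 times). The share of all tested genes above was not counted, so this is not shown to be particular to the 10.

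**Figure D4:**
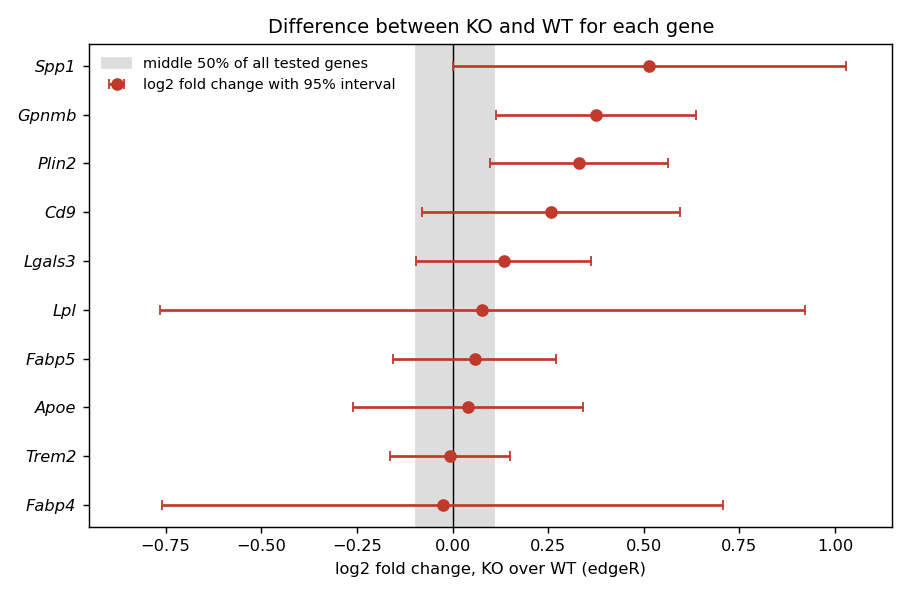
Log2 fold change of KO over WT for each of the 10 genes (points) with its 95% interval (bars) from edgeR, and the middle 50% of all 12136 tested genes (grey band). The intervals of Gpnmb and Plin2 lie above 0, that of Spp1 begins at 0, and those of the other 7 genes include 0.

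Genes around the 10 were followed in 12 lists, with 184 genes besides the 10, of which 152 had enough reads to test. None was called by edgeR, and DESeq2 called 0. With edgeR an unadjusted p under 0.05 was reached by 14 higher and 4 lower genes, 11.8% of the 152, where 6.92% of all tested genes reached it. Of the 152, 78 were above 0 and 74 below, with a median of 0.0063. No gene named from these lists passed, and values are given for the members with the smallest p, with Pparg and other perilipins added after their values were seen. Leaving out single libraries moved the log2 value by over 1.5 times for 20 of the 35 genes taken by smallest p, and changed the sign of none. Among these 35 the groups did not overlap, with KO higher, for Ctsl, Trem3, Dgat2, Sort1, Cpt1a, Rxrb, Cd44, Slc27a3, Slc27a4 and Cd53. With KO lower they did not overlap for Treml2, Sdc4, Cd81 and Etfa. The shares of all tested genes were 6.11% and 6.3%, but picking genes by smallest p favours groups that stand apart.

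Among other genes of the lipid-associated programme, 11 of 23 tested were above 0 and the median was -0.0074. Ctsl, the lysosomal protease cathepsin L, was at 1932 ± 238 CPM in KO and 1546 ± 124 CPM in WT (SD, n = 3 each; log2 0.32, SE 0.103), with groups that did not overlap. Csf1, the growth factor of macrophages, was at 65.5 ± 9.59 CPM in KO and 52.1 ± 6.42 CPM in WT (log2 0.33, SE 0.121). Vat1, a vesicle membrane protein, was at log2 0.19 (SE 0.0894).

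Partners of TREM2, its signalling chain and the proteases that shed it were spread around 0, with 8 of 17 above 0 and a median of -0.03. The lowest p were those of the receptor gene Treml2, a neighbour in the same family, at 17.1 ± 1.13 CPM in KO and 23.0 ± 4.14 CPM in WT (log2 -0.43, SE 0.135), and of the adaptor gene Pik3ap1 (log2 -0.25, SE 0.118). Trem3, another family member, was at log2 0.29 (SE 0.145). Apoe receptors and lipidation genes had 7 of 10 above 0, with a median of 0.11. Sort1, the sorting receptor sortilin, was at 19.5, 22.2 and 18.1 CPM in the KO libraries, against 13.9, 13.7 and 14.4 CPM in the WT libraries, at log2 0.51 (SE 0.110). Its groups did not overlap, and its adjusted p was 0.694 with edgeR and between 0.0830 (DESeq2) and 0.9995 over 17 alternatives. The lipoprotein receptor gene Vldlr was at log2 0.39 (SE 0.196).

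In triglyceride turnover 10 of 18 tested genes were above 0, with a median of 0.042. Dgat2, an enzyme of the last step of triglyceride synthesis, was at 14.3, 12.2 and 14.0 CPM in the KO libraries, against 7.76, 10.3 and 9.07 CPM in the WT libraries. Its groups did not overlap (log2 0.58, SE 0.140), and it did not pass (edgeR adjusted p = 0.694). Dgat1, which catalyses the same step, was at 196, 258.5 and 133 CPM in KO and 110, 140.5 and 167 CPM in WT, with overlapping groups (log2 0.49, SE 0.239). Leaving out KO replicate 2 brought this to 0.24, and leaving out KO replicate 3 to 0.71. Hilpda, an inhibitor of lipolysis in droplets, was at log2 0.25 (SE 0.108). Of the other perilipins in the list, Plin3 was at 65.0 ± 2.58 CPM in KO and 65.1 ± 1.17 CPM in WT, and Plin4 was near the floor at 1.11 ± 0.487 CPM in KO and 0.942 ± 0.771 CPM in WT (SD, n = 3 each). Plin1 had 1 count in all, and Plin5 had 0.

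For handling of lipoprotein lipase 3 of 6 tested genes were above 0, with a median of 0.084. The heparan sulfate proteoglycan genes had log2 values of opposite sign, Sdc4 at 285 ± 18.8 CPM in KO and 397 ± 106 CPM in WT (log2 -0.48, SE 0.168) and Sdc1 at 112 ± 12.8 CPM in KO and 87.8 ± 18.5 CPM in WT (log2 0.36, SE 0.149). Without WT replicate 1, the WT library with the most Sdc4, the log2 value of Sdc4 was -0.24. Furin, a protease that cleaves lipoprotein lipase, was at log2 0.20 (SE 0.104). Fatty acid transport genes were above 0 in 4 of 10 cases, with a median of -0.085, led by the transporters Slc27a3, near the floor at 2.34 ± 0.224 CPM in KO and 1.26 ± 0.248 CPM in WT (log2 0.89, SE 0.281), Slc27a1 (log2 0.29, SE 0.112) and Slc27a4 (log2 0.15, SE 0.0702).

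No transcription factor gene of the lists passed. PPAR, LXR and RXR genes with their targets were above 0 in 10 of 17 cases, with a median of 0.077, and the lowest p were those of Cpt1a, which brings fatty acids into mitochondria (log2 0.20, SE 0.0785), Rxrb (log2 0.15, SE 0.0721) and the desaturase gene Scd2 (log2 -0.26, SE 0.152). Pparg, which codes for PPARγ, was near the floor at 1.46 ± 0.164 CPM in KO and 1.83 ± 0.190 CPM in WT (log2 -0.32, SE 0.277), with a 95% interval from -0.94 to 0.30 on the log2 scale. The MITF and TFEB family with its regulators was above 0 in 8 of 9 cases, with a median of 0.11. Flcn, folliculin, which holds TFE3 and TFEB in the cytosol, was at 90.2, 107 and 67.7 CPM in KO, against 59.1, 69.2 and 66.6 CPM in WT (log2 0.44, SE 0.152). Its groups overlapped, and Rragc (log2 0.16, SE 0.0875) and Tfeb (log2 0.22, SE 0.133) were the next by p. Fatty acid oxidation genes were below 0 in 14 of 17 cases with a median of -0.029, and apart from Cpt1a those named were Etfa (log2 -0.095, SE 0.0674) and Eci1 (log2 -0.15, SE 0.112).

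Receptors and proteases of osteopontin were above 0 in 4 of 11 cases, with a median of -0.071. Cd44 was at 906 ± 30.4 CPM in KO and 785 ± 47.8 CPM in WT, with groups that did not overlap (log2 0.21, SE 0.0749). Itga4, an integrin chain, was at 114 ± 15.4 CPM in KO and 155 ± 24.0 CPM in WT (log2 -0.44, SE 0.132). The protease gene Mmp9 was at 125, 46.8 and 64.8 CPM in KO, against 47.7, 30.7 and 40.2 CPM in WT (log2 0.997, SE 0.352), or 0.50 when KO replicate 1 was left out, the library in which Spp1 and Gpnmb were also highest.

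Tetraspanins and partners of CD9 were above 0 in 11 of 16 cases, with a median of 0.067. Cd37 (log2 0.33, SE 0.1005) and Cd53 (log2 0.18, SE 0.0706) were positive, while Cd81, a close relative of CD9, was at 201 ± 22.1 CPM in KO and 237 ± 3.83 CPM in WT with groups that did not overlap (log2 -0.24, SE 0.0854). Galectins and their ligands were above 0 in 3 of 8 cases, with a median of -0.012. Lamp2, a lysosomal membrane protein (log2 -0.13, SE 0.0806), Lgals3bp, a galectin-3 binding protein (log2 -0.18, SE 0.112), and the receptor gene Mertk (log2 0.10, SE 0.0941) had the lowest p. All edgeR adjusted p values of the genes named from the 12 lists were at least 0.694.

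**Figure D5:**
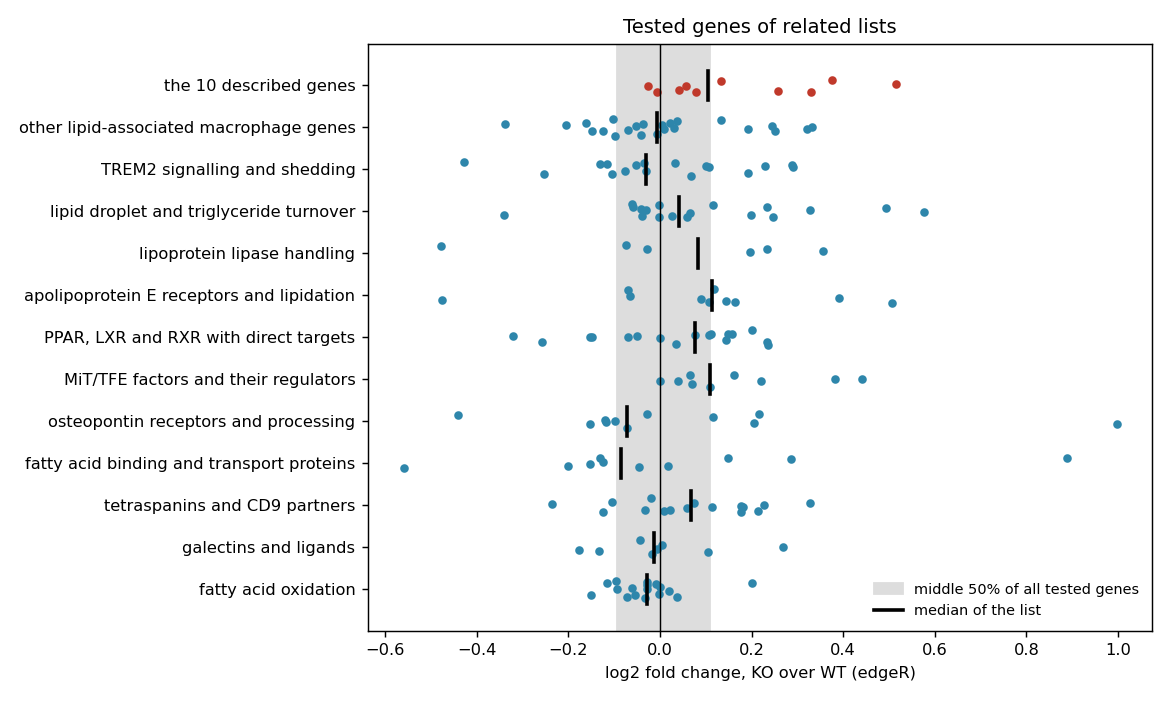
Log2 fold change of KO over WT (edgeR) for the 10 described genes (red, top row) and for each tested gene of 12 related lists (blue), with the median of each list (black bar) and the middle 50% of all tested genes (grey band). The median of the 10 genes is 0.11, and the medians of the lists lie between -0.085 and 0.11.

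Markers of cells that could bring in RNA of these genes did not separate the groups. In two-sided exact permutation tests on the sums, with n = 3 each and 0.1 the smallest possible p, p was 0.2 for macrophages, 0.7 for monocytes, 0.6 for neutrophils, 0.9 for dendritic cells, 0.7 for T and NK cells, 0.4 for B cells, 0.5 for fat cells, 0.3 for endothelium, 0.9 for tumour epithelium and 0.3 for osteoclasts. Nearly all of the sum came from a single gene for monocytes (Fn1), fat cells (Lipe) and tumour epithelium (Cdh1). Fn1 was at 17395 to 20188 CPM in KO, where the monocyte sum was 18380 to 21260 CPM. The p-values of these lists therefore mostly reflect that gene, and do not test how much RNA of those cells was carried over. Osteoclast markers, of interest for Spp1 and Gpnmb, summed to 247, 159 and 181 CPM in KO, against 144, 160 and 172 CPM in WT. KO replicate 1 was the highest, and Mmp9 made up 125 of its 247 CPM. The osteoclast gene Calcr was at 0 in every library and Oscar stayed under 1 CPM. The other markers of this list were present in every library. Acp5 was at 43.9 to 55.1 CPM and Ctsk at 17.8 to 32.1 CPM. Dcstamp was at 20.6 to 50.9 CPM and Ocstamp at 2.27 to 6.17 CPM. The part of the osteoclast sums in the values of Spp1 and Gpnmb was not tested.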

How the data were processed

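The data are deposited raw counts of reads per gene in 6 libraries, 3 KO and 3 WT. The library kit was TruSeq stranded mRNA, per the labels. The submitters' processing notes list Trimmomatic, HISAT2, Cufflinks, HTSeq and mm10 with no roles or versions. Annotation, strand setting and the handling of reads shared by several genes are not given in the sources used here.

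Genes were filtered with filterByExpr in edgeR 4.0.16 (R 4.3.3; at least 10 counts in enough libraries and 15 in total), keeping 12136 genes with 99.962% of all reads. TMM factors and a quasi-likelihood fit with robust shrinkage were used, with genotype as the only term and p-values adjusted over all genes tested. SE is the log2 fold change over the root of F, and 95% intervals follow from it. Alternatives were other scalings and filters, DESeq2 1.42.0, limma 3.58.1 voom, a replicate block and each library left out. The test was checked on simulated counts, where edgeR recovered 61.2% of 1.5-fold changes and 88.1% of 2-fold changes. The simulated spread was that of genes of like level, which 8 of the 10 members exceeded. For those members the shares may be too high. edgeR made 172 calls in the simulated counts and 2 in the data, so an adjusted p under 0.05 was easier to reach in the simulation. The shares may be too high for all 10 members for this reason, and do not give the power for them. Lengths and positions are from GENCODE M21 on GRCm38, which mm10 names.

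The members and lists were chosen with earlier results of these data known. Named genes are the 10 members, Trmt61a, up to 3 genes of each list with the smallest p, of which 1 is not reported here, and markers near 0. Cdh1, Pecam1, Vwf, Kdr, Cdh5, Plin1, Plin5, Lipe, Fn1, Acp5, Ctsk, Dcstamp and Ocstamp were chosen after their values were seen. So were the fibroblast markers Col1a1, Col1a2, Col3a1, Dcn, Pdgfra, Postn and Sparc. Csf1r, C1qa, Adipoq and Lep stand as examples of their lists.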

Additional observations from a re-analysis of the deposited data

How the results depend on the processing

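No member reached an adjusted p under 0.05 in any alternative. Genes called as lower in KO numbered 2, but 1 with RLE, upper-quartile or no scaling factors, no filter or limma-voom, 0 with CPM of at least 1 in 3 libraries, 3 with limma-voom with quality weights, and 21 with DESeq2. Genes called as higher numbered 0, but 8 with DESeq2 and 1 with limma-voom with quality weights. By unadjusted p under 0.05 the counts were 469 genes higher and 371 lower, 3 members higher, and 14 higher and 4 lower genes of the related lists. Leaving out single libraries gave 0 to 2 lower and 0 to 3 higher calls.

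Replicate numbers did not pair the libraries: same-numbered ones had correlations of deviations of -0.0574, -0.0941 and -0.109. With the replicate block 1 gene was called lower.

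Trem2 was at 0.001745 with CPM of at least 1 in 3 libraries and 0.019 with quality weights, where Lpl was at -0.18. With single libraries left out, log2 values ran from -0.046 to 0.044 for Trem2, -0.056 to 0.18 for Apoe, -0.37 to 0.34 for Lpl, -0.30 to 0.20 for Fabp4 and -0.024 to 0.12 for Fabp5. Log2 ratios of marker sums then ran from -0.027 to 0.20 for monocytes, -0.10 to 0.12 for dendritic cells, -0.061 to 0.85 for T and NK cells, -0.20 to 0.035 for fat cells, -0.22 to 0.12 for fibroblasts and -0.15 to 0.24 for tumour epithelium.

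By the longest transcript, levels in CPM per kilobase were 41.4 for Trem2, 2971 for Apoe, 11.7 for Gpnmb, 10.03 for Lpl, 54.5 for Fabp5, 320.9 for Cd9, 1033 for Lgals3 and 272 for Plin2 in KO. In WT they were 2888 for Apoe, 9.0 for Gpnmb, 9.52 for Lpl, 268.5 for Cd9, 941.6 for Lgals3 and 216.5 for Plin2. Depth limits Fabp4.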
